A study of Mus musculus with 12 samples.

Results

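The genes described here encode the coactivators CBP (Crebbp) and p300 (Ep300), the CITED proteins (Cited1, Cited2, Cited4), the acetyltransferases GCN5 (Kat2a) and PCAF (Kat2b), and the nuclear receptor coactivators Ncoa1, Ncoa2 and Ncoa3. They were chosen by name, and every probe set that the array's annotation assigns to one of these 10 symbols was taken, which gave 25 of 45037 probe sets and 10 of the 18193 genes named by at least 1 probe set of their own. Of these, 16 had a mean signal of at least 100 over the 12 arrays and entered the tests, among 18903 probe sets tested in all. They represent 8 of the 10 genes, since Cited1 and Cited4 had low signals only.

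The study measured RNA from 6 lines of primary mouse embryonic fibroblasts, made from e14.5 embryos, on Affymetrix Mouse430_2 arrays, with 1 array per culture. Each line was kept for 6 h in hypoxia (0.1% O2) or in normoxia (21% O2), both with 5% CO2 at 37 °C, which gives 4 groups of 3 arrays. In the 3 triCH1 lines the CH1 domain was deleted from 3 of the 4 alleles of Crebbp and Ep300, and the fourth allele was a conditional knockout. In line triCH1flox1 the deletions were in both Ep300 alleles and 1 Crebbp allele, and the conditional allele was Crebbp. In lines triCH1flox2_1 and triCH1flox2_2 they were in both Crebbp alleles and 1 Ep300 allele, and the conditional allele was Ep300. For the 3 control lines the labels name no CH1 deletion: flox1 had 1 conditional Crebbp allele, and flox2_1 and flox2_2 had 1 conditional Ep300 allele each. All 6 lines, controls included, received a Cre-expressing adenovirus at passage 3 and were expanded at least 100 fold afterwards. The design therefore compares CH1-deleted lines with lines that had also been given Cre against 1 coactivator allele, not with untouched wild-type cells, and each group mixes both floxed genes.

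CBP and p300 are large, closely related proteins that acetylate histones and bridge transcription factors to the transcription machinery. Their CH1 domain (also called TAZ1) is a zinc-binding fold that holds the C-terminal activation domain of the hypoxia-inducible factor HIF-1α when oxygen is low. CITED2 binds the same surface with high affinity and competes with HIF-1α for it. It is known from cultured cells as a gene that hypoxia can induce, so that it can act as a negative feedback on HIF. HIF dimers bind DNA at a short core that reads ACGTG or GCGTG.

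The promoter of Cited2 is shown because Cited2 was the member with the largest contrast between line types relative to its error, and that of Bnip3, a mitophagy receptor gene, because it is the strongly hypoxia-induced gene set beside it below. Both run from 250 bases before to 50 bases after the RefSeq start (GRCm38.p6), at chr10:17722978-17723277 on the plus strand for Cited2 and at chr7:138909457-138909756 on the minus strand for Bnip3. They read 5′ to 3′, and capitals mark ACGTG and GCGTG on either strand.
Cited2: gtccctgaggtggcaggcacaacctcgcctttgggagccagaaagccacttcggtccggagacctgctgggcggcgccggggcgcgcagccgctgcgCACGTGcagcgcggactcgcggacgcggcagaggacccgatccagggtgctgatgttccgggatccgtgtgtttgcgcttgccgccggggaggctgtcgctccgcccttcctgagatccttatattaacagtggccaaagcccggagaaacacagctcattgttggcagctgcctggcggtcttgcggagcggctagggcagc
Bnip3: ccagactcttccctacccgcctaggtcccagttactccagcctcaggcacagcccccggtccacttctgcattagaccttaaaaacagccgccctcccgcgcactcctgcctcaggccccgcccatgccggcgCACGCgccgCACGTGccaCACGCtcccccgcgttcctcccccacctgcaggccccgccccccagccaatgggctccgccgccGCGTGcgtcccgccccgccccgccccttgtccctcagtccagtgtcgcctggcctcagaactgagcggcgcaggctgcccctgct
The Cited2 window held a single CACGTG, which contains ACGTG on both strands with overlap, with its first base 153 bases before the start. The Bnip3 window held 1 such palindrome and 3 matches to GCGTG. Of all 32851 mouse promoters in the same RefSeq table, 19.6% held ACGTG, 32.4% held GCGTG and 43.8% held either on either strand. Promoters were listed for 8 of the 10 coactivator genes (11 windows), of which 3 held ACGTG and 4 held GCGTG; the windows of Crebbp and Ep300 held neither. Ncoa2 and Ncoa3 were not listed in the table used here.

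The authors' scale factors lay between 2.57 and 4.28, array medians between 57.2 and 76.1, and Pearson's r of log2 signals between arrays at 0.936 or above. Of 12 fibroblast markers 11 were on the array, all 11 with a mean of at least 100, and their summed signal lay between 128900 and 196500 on every array. Most of this sum is Vim (mean 44240), Fn1 (24660) and the collagen genes. Other markers varied widely between arrays: Pdgfra from 14.7 to 774.8, Dcn from 12.1 to 856.2 and Lum from 104.7 to 4269.4. All 5 endothelial markers were below 100 (Pecam1 averaged 9.09), and 3 of 5 macrophage markers were (Ptprc averaged 21.1), while Csf1r (194.3) and Cd68 (113.4) were above it. Of 5 neural markers, Pax6 and Sox10 were below 100, and Nes (1066), Sox2 (301.7) and Tubb3 (173) were above it. Nothing in the labels says whether lines flox2_1 and flox2_2, or their triCH1 counterparts, came from separate litters, so p-values measure the spread among arrays of these lines only. Outside the comparison of floxed genes, both arrays of a line entered the main fit as if independent.

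Mean signals of Crebbp and of Ep300 were lower in the lines in which that gene carried the conditional allele, a difference that did not pass adjustment over all probe sets. Crebbp (1435224_at) gave 882.2 and 698.7 in hypoxia and normoxia in triCH1flox1, and 797.3 and 713.1 in flox1, the lines whose conditional allele was Crebbp. In the lines whose conditional allele was Ep300 it gave 922.2 and 1276.9 in triCH1flox2_2, 1754.6 and 1852.4 in triCH1flox2_1, 1013 and 1076.8 in flox2_2, and 1632.1 and 1837.4 in flox2_1. The 4 arrays of the floxed Crebbp lines were all below the 8 others, and among those 8 arrays the lines ending in flox2_1 were above those ending in flox2_2. The ratio of floxed Crebbp to floxed Ep300 lines was 0.545 among triCH1 lines and 0.543 among control lines.

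Ep300 (1434765_at, its sole probe set here) ran the other way. Where the conditional allele was Crebbp it gave 836.4 and 473.8 in hypoxia and normoxia in triCH1flox1, and 412.3 and 586.2 in flox1. Where it was Ep300 it gave 231.4 and 353.4 in triCH1flox2_2, 254.6 and 539.5 in triCH1flox2_1, 206.7 and 267.7 in flox2_2, and 378.8 and 468.4 in flox2_1. Single arrays overlapped, but the means of each line over both oxygen levels did not, and the ratio of floxed Crebbp to floxed Ep300 lines was 1.9 among triCH1 lines and 1.51 among control lines. The hypoxia array of triCH1flox1 was the highest of all 12, and the normoxia array of that line was exceeded by 3 others.

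On line means (2 floxed Crebbp against 4 floxed Ep300 lines), the log2 difference was −0.82 ± 0.25 (SE) for Crebbp 1435224_at, −0.95 ± 0.25 for 1436983_at and −0.52 ± 0.27 for 1434633_at, and 0.76 ± 0.24 for Ep300. Line means of the floxed Crebbp lines were all below the others for 3 of 3 tested Crebbp probe sets, as for 15.8% of all probe sets tested, and all above for Ep300, as for 11.7%. Another Crebbp probe set, 1459804_at, had a low signal and was not tested. In limma, 0 of the 16 coactivator probe sets passed an adjusted p of 0.05, beside 0% of all probe sets tested. At an unadjusted p under 0.05 there were 4 of 16, against 14.2% of all probe sets: Crebbp 1435224_at (adjusted p = 0.327), Crebbp 1436983_at (adjusted p = 0.327), Ep300 (adjusted p = 0.327) and Ncoa2 1435233_at (adjusted p = 0.335). Ncoa2, a p160 coactivator of nuclear receptors, had a log2 difference of −0.61 ± 0.24. The direction for Crebbp and Ep300 was the same with each of the 6 lines left out in turn (−0.95 to −0.69 for Crebbp 1435224_at and 0.59 to 0.93 for Ep300). The 3 tested probe sets of Crebbp moved together over the 12 arrays (Pearson's r between 0.906 and 0.959), whereas Crebbp 1435224_at and Ep300 had r = −0.152. Arrays of a line share its genotype, so these are descriptions. Where the probes lie relative to the CH1 or floxed exons was not analysed here, so a signal cannot be divided between intact and altered alleles, and how far Cre had removed the conditional allele was not measured.

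**Figure D1:**
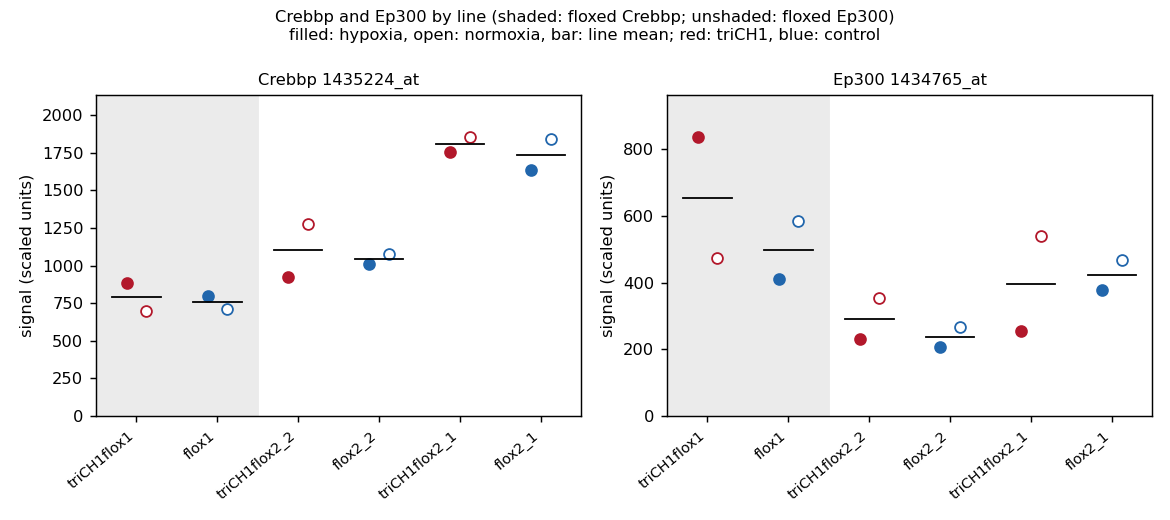
Signal of Crebbp (1435224_at, left) and Ep300 (1434765_at, right) in scaled units for each of the 6 lines, with 1 point per array and a bar at the line mean. Crebbp lies between 698.7 and 882.2 on the 4 arrays of the shaded lines (floxed Crebbp) and between 922.2 and 1852.4 on the others, and Ep300 line means are higher in the shaded lines.

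Between triCH1 and control lines neither Crebbp nor Ep300 passed the test at either oxygen level. Crebbp (1435224_at) averaged 1186 ± 492.5 (SD, n = 3) in triCH1 lines in hypoxia and 1147 ± 433.3 in control lines in hypoxia, and 1276 ± 576.9 in triCH1 lines in normoxia against 1209 ± 573.7 in control lines in normoxia. The log2 difference was 0.04 in hypoxia (95% interval −0.83 to 0.91) and 0.08 in normoxia (−0.79 to 0.94). For Ep300 the means were 440.8 ± 342.8 in triCH1 lines and 332.6 ± 110.3 in control lines in hypoxia, and 455.6 ± 94.4 in triCH1 lines and 440.8 ± 161 in control lines in normoxia. Its log2 difference was 0.20 in hypoxia (−0.72 to 1.11) and 0.09 in normoxia (−0.82 to 1.01). Leaving out single arrays or lines turned the sign of both genes at both oxygen levels: Crebbp lay between −0.28 and 0.32 in hypoxia and between −0.25 and 0.45 in normoxia, and Ep300 between −0.37 (without line triCH1flox1) and 0.52 in hypoxia and between −0.21 and 0.32 in normoxia. Each group holds lines of both floxed genes, and each of these intervals includes changes of over 1.5 times in either direction.

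Cited2 was the only member whose triCH1 and control arrays did not overlap within either oxygen level by all its tested probe sets. It did not pass the main test. Probe set 1452207_at gave 5237, 4643.9 and 6623.6 in hypoxia and 5345.6, 4819.5 and 6266.1 in normoxia in lines triCH1flox2_1, triCH1flox2_2 and triCH1flox1. In flox2_1, flox2_2 and flox1 it gave 7651, 7731.7 and 8375.5 in hypoxia and 7241.6, 7267.6 and 8108.2 in normoxia. All 6 triCH1 arrays were below all 6 control arrays, which held in the same direction for 1.03% of all probe sets tested. Among triCH1 lines triCH1flox1 was the highest, and among control lines flox1 was the highest.

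The other Cited2 probe set, 1421267_a_at, gave 1219.7, 1175.6 and 1400.1 in hypoxia and 978.6, 1052.1 and 1520.1 in normoxia in triCH1flox2_1, triCH1flox2_2 and triCH1flox1. The control lines flox2_1, flox2_2 and flox1 gave 1783.6, 1516 and 1963.1 in hypoxia and 1647.2, 1730.6 and 1875.1 in normoxia. Within each oxygen level the 3 triCH1 arrays were below the 3 control arrays. Across levels the groups met at 1 point, where triCH1flox1 in normoxia (1520.1) was just above flox2_2 in hypoxia (1516). Over the 12 arrays the 2 probe sets had r = 0.916.

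In hypoxia Cited2 (1452207_at) averaged 5502 ± 1016 in triCH1 lines and 7919 ± 397 in control lines (SD, n = 3 each), a log2 difference of −0.54 ± 0.15 (SE). In normoxia it averaged 5477 ± 732.2 in triCH1 lines and 7539 ± 493 in control lines, a log2 difference of −0.47 ± 0.15. For 1421267_a_at the log2 difference was −0.46 ± 0.18 in hypoxia and −0.58 ± 0.18 in normoxia. In limma, none of these passed adjustment over all probe sets: the adjusted p for 1452207_at was 0.311 in hypoxia and 0.432 in normoxia, and for 1421267_a_at 0.554 in hypoxia and 0.419 in normoxia. Without line triCH1flox1 the limma call was made for 1452207_at in hypoxia (−0.68, adjusted p = 0.0278) and for 1421267_a_at in normoxia (−0.77, adjusted p = 0.0451), and for 1452207_at in hypoxia also with the floxed gene as a covariate (adjusted p = 0.0452) and with lines named alike (triCH1flox1 and flox1, for example) as a block (−0.54 ± 0.11, adjusted p = 0.0272). Without triCH1flox1, the only floxed Crebbp line left was the control line flox1, so the line types were not matched for the floxed gene. With floxed Ep300 lines alone, 0 of 16 coactivator probe sets were called in hypoxia and 0 of 16 in normoxia. All of these fits took both arrays of a line as independent. For a difference between line types this gives too many degrees of freedom. On line means over both oxygen levels, an alternative added after seeing the data, 0 of 16 were called. In bulk RNA, fewer cells expressing a gene and less RNA per cell cannot be told apart.

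**Figure D2:**
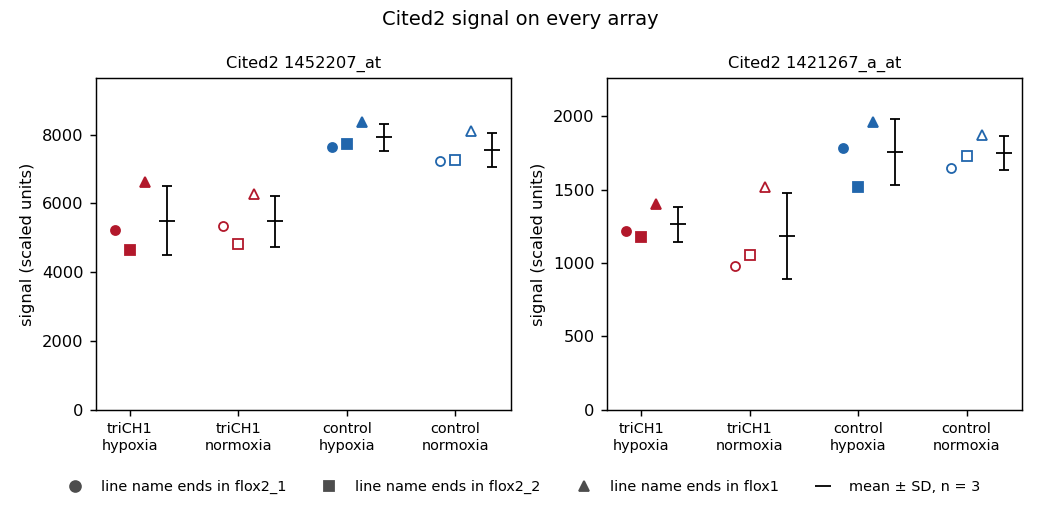
Cited2 signal in scaled units on every array for its 2 tested probe sets, by group, with the mean and SD of 3 arrays beside the points and the marker shape giving the end of the line name. For 1452207_at the 6 triCH1 arrays lie between 4643.9 and 6623.6 and the 6 control arrays between 7241.6 and 8375.5, at either oxygen level.

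For 2 lists of markers of other cell types the summed signals of triCH1 and control lines did not overlap in hypoxia but overlapped in normoxia, and 0 genes of either list passed the limma test between line types. The summed signal of 5 skeletal muscle markers lay between 10210 and 13720 in triCH1 lines and between 15450 and 17420 in control lines in hypoxia, and between 7992 and 13820 in triCH1 lines and 12230 and 18360 in control lines in normoxia. Most of that sum is Acta1, which averaged 13580; Des averaged 314.5, and the muscle regulators Myod1 (47.3), Myog (19.8) and Myf5 (9.72) were below 100. The summed signal of 5 epithelial markers lay between 3683 and 3867 in triCH1 lines and 5912 and 7596 in control lines in hypoxia, but between 1335 and 2468 in triCH1 lines and 1324 and 2289 in control lines in normoxia. Most of this sum is Krt19, which averaged 3118; Epcam and Krt18 had means of 142.2 and 214.3, and Krt8 and Cdh1 of 71.3 and 39.5. By limma, 1 of the epithelial markers was called higher in hypoxia in triCH1 lines, in control lines and over both. The epithelial sum was higher in hypoxia than in normoxia in both line types. None of either list was at 0. Their part in the Cited2 difference was not tested.

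Neither Cited2 probe set passed the test for a hypoxia response, while most hypoxia-induced reference genes were called higher in the same cultures. The log2 response of 1452207_at to 6 h of hypoxia was −0.00 ± 0.15 in triCH1 lines (95% interval −0.32 to 0.31) and 0.07 ± 0.15 in control lines (−0.24 to 0.39). That of 1421267_a_at was 0.12 ± 0.18 in triCH1 lines (−0.27 to 0.51) and −0.00 ± 0.18 in control lines (−0.39 to 0.39). These fits did not pair the arrays of a line. With each line as a block the estimates were the same, with an SE of 0.11 for 1452207_at and 0.15 for 1421267_a_at. The signal of 1452207_at was higher in hypoxia in 1 of 3 triCH1 lines and in 3 of 3 control lines. Bnip3 had a log2 response of 4.39 ± 0.18 in triCH1 lines (adjusted p = 2.62e-08, limma) and 4.46 ± 0.18 in control lines (adjusted p = 2.12e-08, limma). Of 10 hypoxia-induced reference genes, 7 were called higher in triCH1 lines and 8 in control lines by limma, and all 10 had a positive response in both. This list was chosen with earlier results of these data known, so these calls are a description and not an independent check.

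None of the 16 coactivator probe sets passed the limma threshold for the hypoxia response. The count was 0 of 16 in triCH1 lines, beside 0.635% of all probe sets, 0 of 16 in control lines, beside 0.831%, and 0 of 16 over both line types together, beside 1.75%. At an unadjusted p under 0.05 there were 1, 0 and 3 of 16, against 6.25%, 5.98% and 11.3% of all probe sets. The median log2 response of the 16 was 0.01 in triCH1 lines and −0.08 in control lines, where all probe sets had medians of −0.02 and −0.04. With each line as a block, the counts over all probe sets were 189 (1%), 264 (1.4%) and 693 (3.67%), and held 0 of the 16. The difference between the responses of triCH1 and control lines was called for 0 of 16, beside 0% of all, and 0 of the 16 had an unadjusted p under 0.05, against 0.693% of all.

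The 3 probe sets with an unadjusted p under 0.05 over both line types belonged to Ncoa3 and Kat2a, and all were lower in hypoxia. Ncoa3, a p160 coactivator that recruits CBP and p300 to nuclear receptors, gave by 1448027_at 191.6, 118.7 and 207.4 in hypoxia against 258.6, 240.4 and 239.7 in normoxia in triCH1flox2_1, triCH1flox2_2 and triCH1flox1. Its values in flox2_1, flox2_2 and flox1 were 192.5, 153.2 and 203.8 in hypoxia against 227.1, 248.8 and 236.5 in normoxia. It was lower in hypoxia in 6 of 6 lines, as were 7.23% of all probe sets, and its 6 hypoxia arrays were all below its 6 normoxia arrays, as for 0.709% of all. Its log2 response over both line types was −0.42 ± 0.16 (adjusted p = 0.311, limma). The other Ncoa3 probe set, 1422737_at, had a response of −0.08 ± 0.19 and was lower in hypoxia in 3 of 6 lines. It hardly followed the first over the arrays (r = 0.0141).

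Kat2a, the catalytic subunit of the SAGA acetyltransferase complex, gave by 1426783_at 1018.8, 1021.5 and 1258.2 in hypoxia against 1255.7, 1732.1 and 1258.9 in normoxia in triCH1flox2_1, triCH1flox2_2 and triCH1flox1. In flox2_1, flox2_2 and flox1 it gave 1044.1, 868.7 and 733.3 in hypoxia against 984.4, 1351.4 and 955.8 in normoxia. The signal was lower in hypoxia in 5 of 6 lines, by most in the 2 lines ending in flox2_2 and hardly at all in triCH1flox1, and the groups overlapped. Its log2 response over both line types was −0.33 ± 0.14 (adjusted p = 0.401, limma). For 1422972_s_at, which by its name can match several transcripts, it was −0.42 ± 0.15 (adjusted p = 0.247, limma), also lower in 5 of 6 lines. The third probe set, 1422971_at, had 0.09 ± 0.15 and did not follow the others (r = −0.218 and −0.0287). Ep300 was also lower in hypoxia in 5 of 6 lines, with a log2 response over both line types of −0.32 ± 0.30 (adjusted p = 0.776, limma). The share of all probe sets lower in 5 of 6 lines was not computed.

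**Figure D3:**
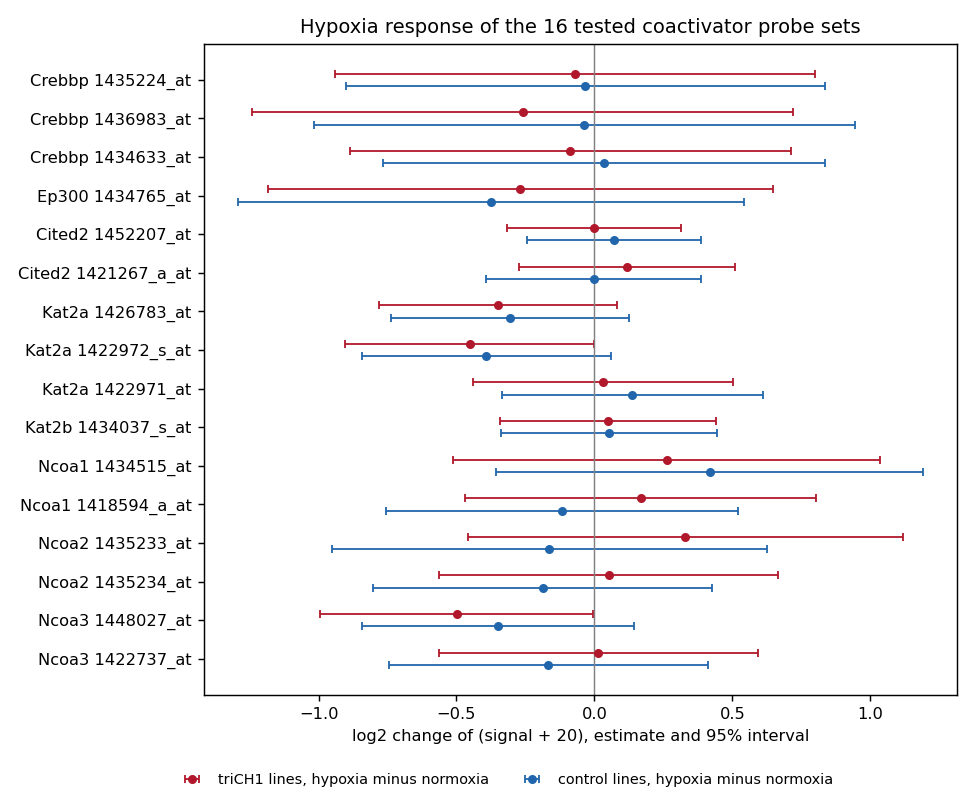
Log2 change of signal + 20 in hypoxia against normoxia for the 16 tested coactivator probe sets, with 95% intervals from limma, for triCH1 lines above control lines in each row. The intervals do not use the pairing of arrays by line. All intervals but 1 touch or cross 0 (Ncoa3 1448027_at in triCH1 lines, −0.99 to −0.00), and both Cited2 probe sets lie near 0 with narrow intervals.

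Set against control lines, triCH1 lines had 0 of the 16 probe sets called in hypoxia, beside 0.0741% of all probe sets, and 0 of 16 in normoxia, beside 0.00529%, by limma. With lines named alike as a block, 1 of the 16 was called in hypoxia (Cited2 1452207_at), where the calls over all probe sets were 229 in place of 14, and 0 of 16 in normoxia, where they were 176 in place of 1. At an unadjusted p under 0.05 there were 2 of 16 in hypoxia, against 7.97% of all, and 2 of 16 in normoxia, against 7.56%, in both cases the Cited2 pair. The medians of the 16 were 0.16 in hypoxia and 0.08 in normoxia, where all probe sets had 0.04 and 0.02. In hypoxia, 3 of the 16 had all triCH1 arrays below all control arrays (both Cited2 probe sets and Kat2a 1422971_at), beside 6.05% of all, and 2 had them above (Kat2b 1434037_s_at and Ncoa2 1435234_at), beside 7.1%. In normoxia the Cited2 pair alone was fully below, beside 4.64%, and 0 of 16 were fully above, beside 6.18%.

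Among the other acetyltransferases, Kat2b (1434037_s_at), the homologue of Kat2a in the same kind of complex, gave 777.8, 1108.8 and 1038.4 in hypoxia and 941.2, 1036.3 and 830.1 in normoxia in triCH1flox2_1, triCH1flox2_2 and triCH1flox1. The control lines flox2_1, flox2_2 and flox1 gave 745.4, 759.2 and 721.9 in hypoxia and 858.2, 640.6 and 662.8 in normoxia. The triCH1 arrays were above the control arrays in hypoxia, and in normoxia they overlapped at triCH1flox1 and flox2_1. The log2 differences were 0.37 ± 0.18 in hypoxia (adjusted p = 0.642, limma) and 0.37 ± 0.18 in normoxia (adjusted p = 0.687, limma). This was the sole Kat2b probe set tested, and by its name it can match several transcripts. Kat2a 1426783_at had 0.32 ± 0.20 in hypoxia and 0.36 ± 0.20 in normoxia, while its probe set 1422971_at had −0.44 ± 0.22 and −0.33 ± 0.22, so that probe sets of this gene disagreed in sign.

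Ncoa1 (1434515_at), another p160 coactivator, gave 466.1, 217.4 and 179.4 in hypoxia and 287.9, 195.5 and 180.7 in normoxia in triCH1flox2_1, triCH1flox2_2 and triCH1flox1. Its values in flox2_1, flox2_2 and flox1 were 219.3, 158 and 208.4 in hypoxia and 214.9, 83.9 and 147.1 in normoxia. The highest value belonged to 1 array, triCH1flox2_1 in hypoxia, and the groups overlapped. Its log2 differences between triCH1 and control lines were 0.41 ± 0.36 in hypoxia and 0.57 ± 0.36 in normoxia, and lay between 0.03 and 0.67 in hypoxia and between 0.26 and 0.85 in normoxia with single arrays or lines left out, the value of 0.03 being that without line triCH1flox2_1. The second Ncoa1 probe set, 1418594_a_at (r = 0.765 with the first over the arrays), averaged 252.2 ± 88.5 in triCH1 lines and 176.4 ± 40.4 in control lines in hypoxia, and 223.3 ± 84.5 in triCH1 lines and 191.5 ± 30.7 in control lines in normoxia. Its log2 differences were 0.45 ± 0.30 in hypoxia and 0.16 ± 0.30 in normoxia. The log2 response to hypoxia in control lines was 0.42 for 1434515_at and −0.12 for 1418594_a_at, so the 2 probe sets differed in sign there.

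Ncoa2 (1435233_at) gave 490.8, 420.4 and 298.6 in hypoxia and 497.2, 345.3 and 170.9 in normoxia in triCH1flox2_1, triCH1flox2_2 and triCH1flox1. In flox2_1, flox2_2 and flox1 it gave 387.9, 322.3 and 231.6 in hypoxia and 547.5, 231.3 and 325.6 in normoxia. At either oxygen level the line ending in flox2_1 was the highest of its type, and the line types overlapped. Its log2 differences were 0.34 ± 0.37 in hypoxia and −0.15 ± 0.37 in normoxia, where leaving out single arrays or lines gave −0.47 to 0.25. The second Ncoa2 probe set, 1435234_at, averaged 181.7 ± 36.8 in triCH1 lines and 113.6 ± 23.5 in control lines in hypoxia, a log2 difference of 0.60 ± 0.29 (adjusted p = 0.636, limma).

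**Figure D4:**
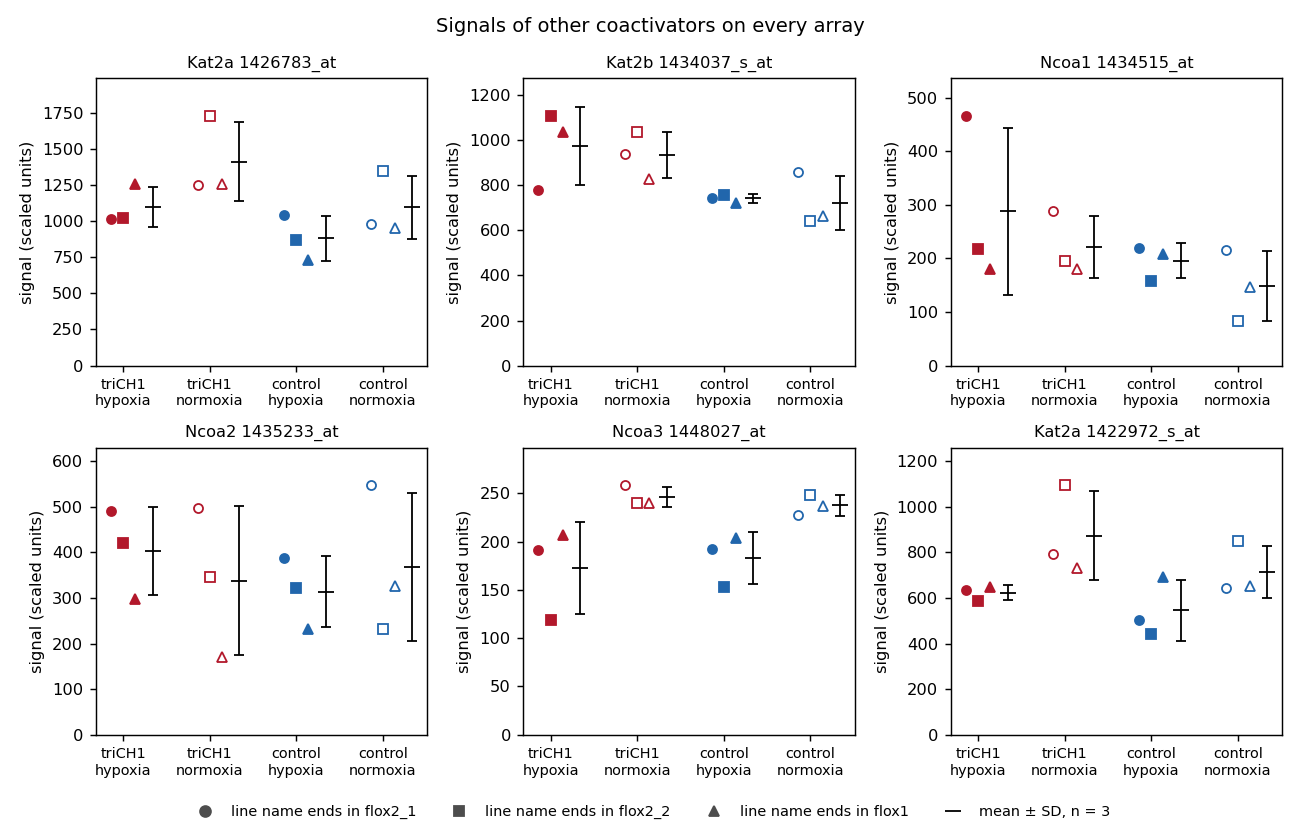
Signal in scaled units on every array for the brightest probe set of Kat2a, Kat2b, Ncoa1, Ncoa2 and Ncoa3 and for a second probe set of Kat2a, by group, with mean and SD of 3 arrays and marker shapes for the end of the line name. Ncoa3 is lower on every hypoxia array than on every normoxia array, and Kat2b is higher in triCH1 than in control lines in hypoxia, where control arrays lie between 721.9 and 759.2.

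The remaining probe sets had low signals. Cited1 (1449031_at), a relative of Cited2 that likewise lacks a DNA-binding domain, gave 9.5, 11.5 and 4.2 in hypoxia and 5.1, 7.8 and 6.1 in normoxia in the triCH1 lines. The control lines flox2_1, flox2_2 and flox1 gave 38.2, 14 and 7.2 in hypoxia and 34.7, 8.1 and 14.1 in normoxia. Cited4 lay between 4.4 and 55.8 by 1438261_at and between 1.9 and 27.8 by 1425400_a_at, with triCH1 and control arrays interleaved. The other low probe sets had means of 28.2 (Crebbp 1459804_at), 79.6 and 14.9 (Kat2b 1450821_at and 1457809_at), 12.5 (Ncoa1 1443397_at), and 73.6 and 56.3 (Ncoa2 1450458_at and 1446827_at). No detection calls were used, so a low signal is a bound on what the probe set could show and not evidence that the RNA was absent.

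**Figure D5:**
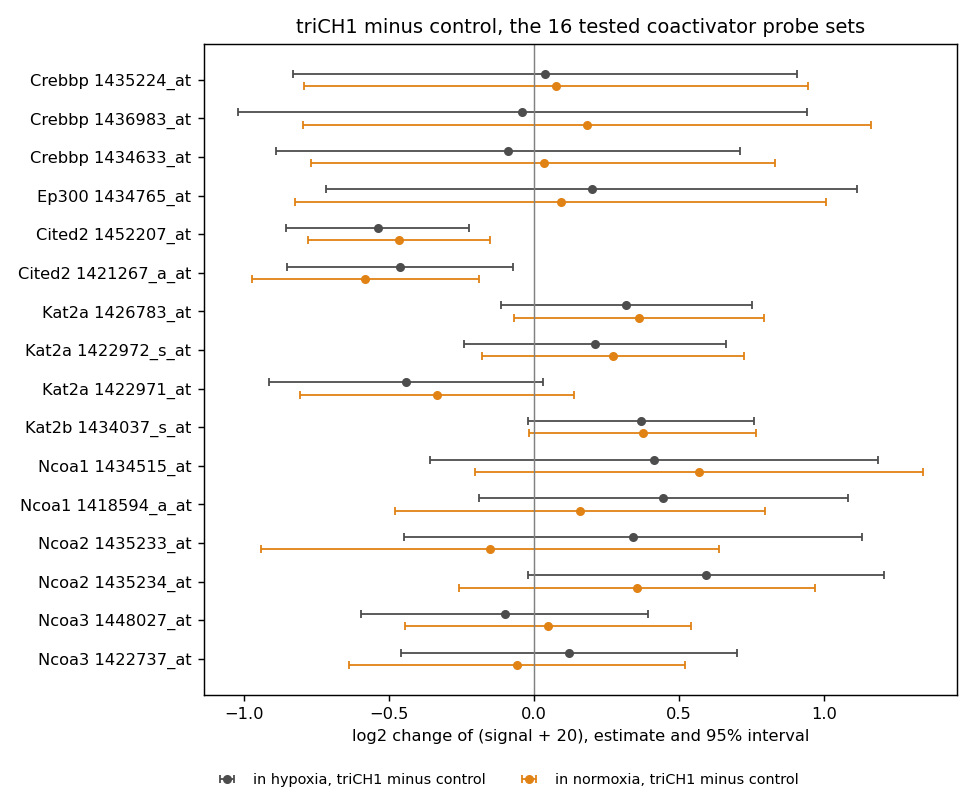
Log2 difference of signal + 20 between triCH1 and control lines for the 16 tested coactivator probe sets, with 95% intervals from limma, in hypoxia above normoxia in each row. Both Cited2 probe sets lie below 0 at both oxygen levels (−0.54 and −0.47 for 1452207_at), and the intervals of the other 14 include 0.

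Partners of these coactivators, other acetyltransferases and corepressors were read from 6 further lists. By limma, 0 genes of any list passed the threshold in any of the 7 comparisons. The SAGA and PCAF complex list, whose subunits carry Kat2a or Kat2b, had 15 of 16 genes tested. Of these 13 had a positive log2 difference between triCH1 and control lines in hypoxia and 15 in normoxia, with median log2 differences of 0.23 and 0.20 beside 0.04 and 0.02 for all probe sets. The genes were read on the same arrays, so their signs are not independent, and a joint change of the list was not tested. Its largest differences were Tada1 (0.51 ± 0.19) and Sgf29 (0.46 ± 0.19) in hypoxia, and Sgf29 (0.61 ± 0.19, adjusted p = 0.41, limma) and Trrap (0.36 ± 0.29) in normoxia. Over both line types its largest responses to hypoxia were Atxn7 (0.52 ± 0.21) and Taf12 (−0.37 ± 0.10, adjusted p = 0.091, limma).

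The 8 acetyltransferases of other families were led by Hat1, which acetylates newly made histone H4, with 0.68 ± 0.28 in triCH1 against control lines in hypoxia and 0.55 ± 0.28 in normoxia. The next were Kat6b in hypoxia (−0.38 ± 0.27) and Naa40 in normoxia (0.38 ± 0.18), and over both line types Kat6b (0.40 ± 0.19) and Naa40 (−0.37 ± 0.13) had the largest responses to hypoxia. Other nuclear receptor coactivators and partners (10 tested of 12) had smaller differences, the largest being Ncoa7 (0.35 ± 0.23) and Med1 (0.18 ± 0.21) in hypoxia, Carm1 (0.31 ± 0.19) and Med12 (0.30 ± 0.18) in normoxia, and Ncoa5 (−0.29 ± 0.17) and Carm1 (−0.26 ± 0.13) for the response to oxygen. The 4 corepressor genes tested were led by Tbl1xr1, with 0.78 ± 0.42 in triCH1 against control lines in hypoxia and 0.43 ± 0.42 in normoxia, followed by Gps2 in hypoxia (0.23 ± 0.24) and Sin3a in normoxia (0.33 ± 0.22). Their largest responses to oxygen were those of Tbl1x (0.25 ± 0.09) and Tbl1xr1 (−0.17 ± 0.29).

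The last lists hold partners that bring CBP and p300 to DNA. In the CREB and CRTC list, in which CREB binds the KIX domain of CBP and not CH1, 5 genes were tested. Crtc2 (0.77 ± 0.49) and Crem (−0.56 ± 0.25) differed most in triCH1 against control lines in hypoxia, and Crtc1 (0.61 ± 0.35) and Crem (−0.42 ± 0.25) in normoxia, while Crem (−0.23 ± 0.18) and Crtc3 (−0.23 ± 0.16) had the largest responses to oxygen. Of the transcription factors that bind CH1, 5 of 6 were tested. Epas1, which encodes HIF-2α, had −0.53 ± 0.35 in hypoxia and −0.39 ± 0.35 in normoxia, and Ets1 had −0.43 ± 0.21 and −0.41 ± 0.21, in triCH1 against control lines. Their largest responses to oxygen were those of Stat2 (−0.35 ± 0.22) and Epas1 (−0.27 ± 0.25). Between floxed Crebbp and floxed Ep300 lines, the largest differences in these lists were Tbl1xr1 (−0.83 ± 0.31, adjusted p = 0.329, limma), Hat1 (−0.60 ± 0.27), Crtc1 (−0.57 ± 0.23), Crtc2 (0.56 ± 0.41) and Epas1 (−0.56 ± 0.28).

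Across all 12 arrays, the signals most like that of Crebbp (1435224_at) were those of Adgrl2 (Pearson's r = 0.962), Fat4 (r = 0.94) and B4galt6 (r = 0.93). Those most like Ep300 were Cpeb3 (r = 0.884), Pcnx (r = 0.879) and 1110008P14Rik (r = 0.86). Those most like Cited2 (1452207_at) were Mxd4 (r = 0.968), AA467197 (r = 0.961) and Cttnbp2nl (r = 0.958). These are the highest r found over all tested probe sets of other genes with 1 symbol, keeping the best probe set of each gene. They are descriptions over 12 arrays that share lines and groups. AA467197 was among the 14 probe sets called between triCH1 and control lines in hypoxia, with a log2 difference of −3.13 (adjusted p = 0.0461, limma).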

How the data were processed

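The deposited values are linear signals (intensity) per probe set; per the labels, the authors ran the Affymetrix Statistical algorithm and set each array to a target of 500; the software version is not given in the sources used here. Of 45101 probe sets 64 controls were left out; 34945 had exactly 1 symbol in the array's annotation table, 932 several and 9160 none listed. Log2(signal + 20) was tested where the mean signal reached 100, in 18903 probe sets (limma 3.58.1, lmFit and eBayes with a variance trend, R 4.3.3) with a mean for each group (8 residual degrees of freedom). Both arrays of a line entered this fit as if independent. For triCH1 against control, a property of the 6 lines, these degrees of freedom are therefore too many. For the hypoxia responses, this fit and its intervals do not use the pairing of arrays by line. The 7 comparisons were the hypoxia response in triCH1 lines, in control lines, over both and its difference, triCH1 against control in hypoxia and in normoxia, and, on 6 line means, floxed Crebbp against floxed Ep300. Tests were two-sided, with Benjamini-Hochberg adjustment over all probe sets within a comparison, calls at an adjusted p under 0.05 and 95% intervals. Arrays carry no counts, so the number of arrays limits the precision.

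Hypoxia and normoxia arrays of a line are paired by the labels, which give them the same line; after removal of group means their r was 0.575, 0.346 and 0.542 in triCH1flox2_1, triCH1flox2_2 and triCH1flox1, and 0.284, −0.0199 and 0.472 in flox2_1, flox2_2 and flox1.

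The members and the gene lists were chosen with earlier results of these data known. Each member is given by its brightest probe set, with the other probe sets in brief. From the other lists, called genes and the 2 largest changes not called were named for 3 comparisons (triCH1 against control at both oxygen levels and the response over both line types), and fewer for the floxed loci; for the remaining comparisons the counts alone are given. Likeness is the Pearson r over 12 arrays, giving the 3 highest genes. Alternatives were pseudocounts of 1 and 100, other filters, quantile and median scaling, other eBayes settings, the arrays of a comparison alone, 1 value per gene, blocks, covariates, floxed Ep300 lines alone and omissions of arrays and lines. The script was tested on simulated data. Promoters are those of RefSeq for GRCm38.p6.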

Additional observations from a re-analysis of the deposited data

How the results depend on the processing

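The number of coactivator probe sets called was 0 in each of the 7 comparisons and stayed 0 under 18 to 32 alternatives each, except for 4 settings, each with 1 call, a Cited2 probe set. These were triCH1 against control in normoxia without line triCH1flox1 (1421267_a_at, −0.77, adjusted p = 0.0451, limma; leaving out arrays or lines gave 0 to 1 calls), and triCH1 against control in hypoxia without line triCH1flox1 (1452207_at, −0.68, adjusted p = 0.0278; 0 to 1 calls), with the floxed gene as a covariate (−0.54, adjusted p = 0.0452), and with lines named alike as a replicate block (−0.54 ± 0.11, 1 call, adjusted p = 0.0272). Without triCH1flox1, the only floxed Crebbp line left was the control line flox1. With floxed Ep300 lines alone, 0 of 16 were called in hypoxia and 0 of 16 in normoxia. The cause was not tested. Lines named alike share the floxed gene, and the labels name no shared litter or batch: after removal of group means their r was 0.154, 0.203 and 0.224 in hypoxia and 0.372, −0.00856 and 0.322 in normoxia (flox2_1, flox2_2, flox1). Over all alternatives the Cited2 log2 difference lay between −0.68 and −0.43 (1452207_at; adjusted p 0.0272 to 0.919) and between −0.56 and −0.38 (1421267_a_at; adjusted p 0.144 to 1) in hypoxia, and between −0.57 and −0.38 (adjusted p 0.061 to 1) and between −0.77 and −0.46 (adjusted p 0.0451 to 1) in normoxia. Every fit with a call took both arrays of a line as independent. On line means over both oxygen levels, an alternative added after seeing the data, 0 were called.

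Calls over all probe sets depended more on the fit. With each line as a block they were 189 against 120 for the hypoxia response in triCH1 lines, 264 against 157 in control lines and 693 against 331 over both. With lines named alike as a block they were 229 against 14 in hypoxia and 176 against 1 in normoxia for triCH1 against control, with the floxed gene as a covariate 129 and 88, and without line triCH1flox1 276 and 245. Of 3186 single recomputed values 4 passed the threshold and 266 turned sign, 0 of them where the unadjusted p had been under 0.05. The line block changed no member's call.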
